A study of Mus musculus with 267 samples.

Results

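Acetylation of lysine 27 of histone H3 (H3K27ac), found at enhancers and promoters in use, was compared between 6 h and 24 h of interleukin-4 (IL-4) in bone marrow-derived macrophages of C57BL/6J mice. The comparison took every region of the deposited C57 time course, 77955 of 77955 regions of open chromatin, each 1000 bp wide, and 2 libraries of chromatin immunoprecipitation with sequencing (ChIP-seq) at each time, which are 4 of the 267 samples of the series. The 6 h group and the 24 h group held macrophages of the same strain, with no engineered allele, grown from marrow of young adult female mice in M-CSF and given 20 ng/mL of mouse recombinant IL-4. Untreated (basal) macrophages and macrophages at 1 h of IL-4 (2 libraries each, same strain) served as reference points. RNA polymerase II (Pol II) was read in the same regions (4 libraries at basal, 1 at 1 h, 2 at 6 h and 3 at 24 h). The factor EGR2 was read at its own sites in C57 (2 libraries at each time), and H3K27ac was also read at 24 h in macrophages whose Egr2 alleles are floxed, either without Cre (Egr2flfl) or with Cre expressed from the myeloid LyzM locus to delete them (LyzMCreEgr2flfl), 2 libraries each. The labels call the immunoprecipitations biological replicates but do not tie them to mice, so p-values measure the spread between these libraries.

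IL-4 binds a receptor that activates the transcription factor STAT6, which enters the nucleus within minutes and drives the alternatively activated state of macrophages, known for arginine metabolism, lectin and chitinase-like proteins and chemokines of allergy. In macrophages, PU.1 and C/EBP factors open enhancers, and STAT6, AP-1 and, later, factors made in response to IL-4 such as EGR2 and PPARg act on them. Acetylated H3K27 is deposited by co-activators at working enhancers and is removed by deacetylases, so its level at an enhancer can go up and come down again while the ligand stays present.

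The levels are normalized tags, reads per 10000000 reads of the library. A region was counted as higher or lower at 24 h by a fold rule: the group means, each plus 1, differed at least 2.5-fold, and at least 1 group held 16 normalized tags or more. By this rule 1023 regions were higher at 24 h than at 6 h, 1.31% of those measured, and 1449 were lower, 1.86%. Under median-ratio scaling, which moved the median log2 difference of all regions from -0.06 to 0.03, the counts were 1324 and 1110, and without the first 6 h library they were 1088 and 1025, so which direction held more regions depended on these choices. Of the 1023, the libraries of both times lay apart at 895, and of the 1449 at 1395. Over all regions, the 24 h libraries were both above the 6 h libraries at 17.6% and both below at 23.2%, so such separation alone was common. In limma's test over all 8 libraries, with Benjamini-Hochberg adjustment over all regions, 57 regions (0.0731%) rose from 6 h to 24 h and 0 (0%) fell. At an unadjusted p under 0.05 there were 2382 higher and 1721 lower regions. All 57 held at least 1 window of 75 bases that the mouse reference holds more than once, and they are described apart from the other regions below. A region was called single-copy where none of 10 evenly spaced windows of 75 bases recurred in the reference and it was not mitochondrial, a choice made after the values were seen. Without the first 6 h library limma called 21 higher regions, and without the first 24 h library 50 higher and 25 lower. Among 73706 single-copy regions the fold rule found 868 higher and 1398 lower, and limma called 0 in either direction, with a lowest adjusted p of 0.962.

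**Figure D1:**
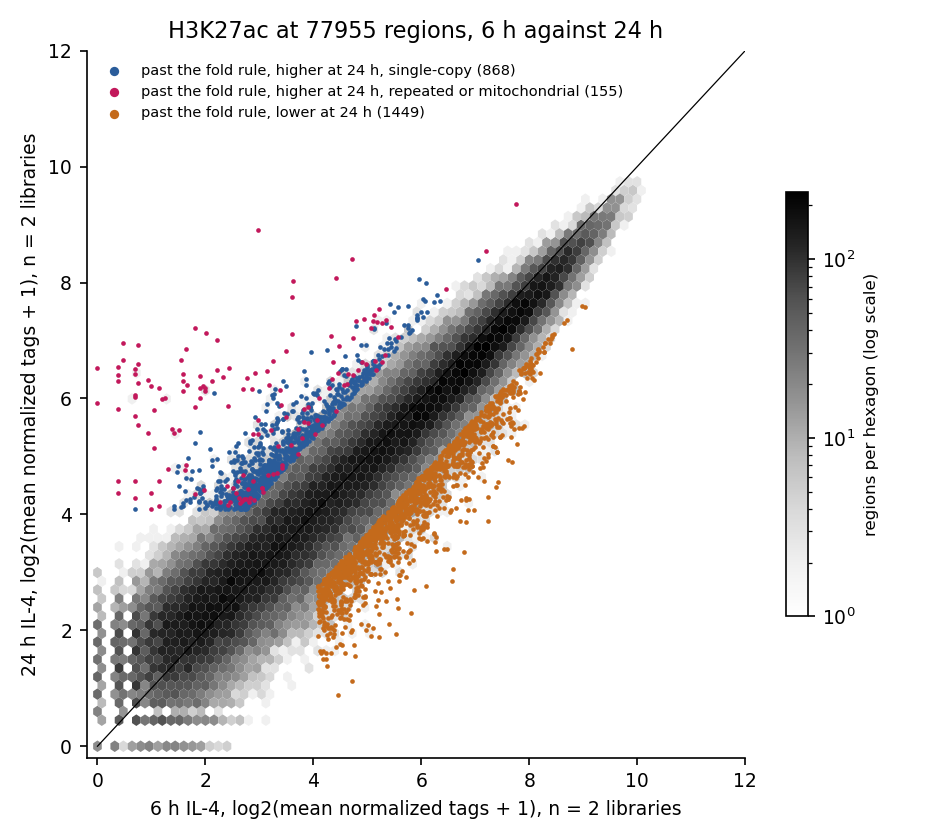
Each hexagon counts regions by their mean H3K27ac at 6 h (x axis) and 24 h (y axis), as log2 of normalized tags plus 1, with 2 libraries at each time. Coloured points are the regions past the fold rule, of which 868 single-copy regions and 155 repeated or mitochondrial regions were higher at 24 h and 1449 were lower; the repeated regions hold the largest differences at low 6 h levels.

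The libraries held 11780899 to 16432575 reads, so that 16 normalized tags stood for 18.9 to 26.3 reads. The share of reads inside regions was 51.0% and 50.2% at 6 h and 46.4% and 41.2% at 24 h. In the basal libraries it was larger, at 69.7% and 63.8%. Across 41628 regions, log2 levels correlated at 0.920 between the 6 h libraries and at 0.823 between the 24 h libraries. With the 6 h libraries the first 24 h library correlated at 0.875 and 0.922 and the second at 0.746 and 0.799, and with the second basal library they correlated at 0.677 and 0.783. The second 24 h library thus stood apart from its partner, with lower correlation to 6 h and higher correlation to that basal library. These correlations are descriptions over regions that share libraries. Without the second 24 h library the fold rule counted 464 higher and 1487 lower regions, and without the first it counted 2855 and 4056. Without the second 6 h library the counts were 1914 and 2603. Promoters of all 8 macrophage marker genes were acetylated, at 126 to 825 normalized tags at 6 h and 77.4 to 638 at 24 h. Of 22 markers of other blood and stromal cells, 9 had a promoter region, with means of 0.915 to 62.3 normalized tags at 6 h and 1.93 to 42.1 at 24 h. Of these 9, 2 were past 16 normalized tags, the neutrophil gene S100a8 (62.3, then 40.1) and the B cell gene Ms4a1 (37.8, then 42.1), and their part in the results was not tested. In such bulk libraries, fewer cells with a mark and less of it per cell cannot be told apart.

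The central 300 bases of 6 regions are printed to show the sequence behind each kind of change in the results that follow. They are the plus strand of mm10 (GRCm38.p6, RefSeq), and capitals mark motifs found on either strand. The motifs searched were STAT6 (TTCNNNNGAA), STAT (TTCNNNGAA), AP-1 (TGANTCA), PU.1 (AGGAAGT), C/EBP (TTGCNNAA), IRF (GAAANNGAAA), EGR (GTGGGCG) and MITF/TFE (TCACGTG). The letters of a STAT motif and of a PU.1 motif can overlap, which they do not in these 6 regions. Ank and Lclat1 were among the largest single-copy gains, with Ank back near its basal level and Lclat1 above it. Slc7a14 and Schip1 were acetylated early and lower at 24 h, Ang5 was acetylated early and kept its level, and the Arg1 region is an enhancer beside the best-known gene of alternative activation.
Ank, chr15:27518036-27518335: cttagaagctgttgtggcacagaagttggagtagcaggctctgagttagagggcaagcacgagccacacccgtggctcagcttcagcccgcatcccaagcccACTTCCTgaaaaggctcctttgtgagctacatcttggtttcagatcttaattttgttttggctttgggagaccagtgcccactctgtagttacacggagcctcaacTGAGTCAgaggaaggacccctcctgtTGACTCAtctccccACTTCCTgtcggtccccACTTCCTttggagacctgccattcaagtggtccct
Lclat1, chr17:73250537-73250836: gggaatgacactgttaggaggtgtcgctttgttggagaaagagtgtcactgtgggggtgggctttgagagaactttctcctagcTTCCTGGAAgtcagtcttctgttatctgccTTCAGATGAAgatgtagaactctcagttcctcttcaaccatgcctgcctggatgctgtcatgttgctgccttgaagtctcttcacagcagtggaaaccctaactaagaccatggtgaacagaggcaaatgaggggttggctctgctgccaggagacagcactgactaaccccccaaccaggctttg
Slc7a14, chr3:31266114-31266413: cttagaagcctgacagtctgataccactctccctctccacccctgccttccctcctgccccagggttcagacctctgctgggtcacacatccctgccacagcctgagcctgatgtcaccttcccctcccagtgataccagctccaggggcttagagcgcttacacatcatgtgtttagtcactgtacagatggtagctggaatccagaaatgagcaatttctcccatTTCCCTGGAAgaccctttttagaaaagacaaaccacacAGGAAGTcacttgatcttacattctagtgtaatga
Schip1, chr3:68631000-68631299: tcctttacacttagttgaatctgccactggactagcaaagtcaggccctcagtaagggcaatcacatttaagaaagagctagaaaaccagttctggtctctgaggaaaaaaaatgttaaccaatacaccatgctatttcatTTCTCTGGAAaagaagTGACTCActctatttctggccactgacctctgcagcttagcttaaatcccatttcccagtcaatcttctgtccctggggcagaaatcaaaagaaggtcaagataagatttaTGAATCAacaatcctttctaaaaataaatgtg
Ang5, chr14:43967240-43967539: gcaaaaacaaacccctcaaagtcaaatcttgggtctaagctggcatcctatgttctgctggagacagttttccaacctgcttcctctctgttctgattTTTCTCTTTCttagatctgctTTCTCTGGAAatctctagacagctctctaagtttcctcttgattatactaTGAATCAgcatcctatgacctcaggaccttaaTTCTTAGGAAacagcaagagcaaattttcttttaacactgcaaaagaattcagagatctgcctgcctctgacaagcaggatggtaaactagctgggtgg
Arg1, chr10:24930200-24930499: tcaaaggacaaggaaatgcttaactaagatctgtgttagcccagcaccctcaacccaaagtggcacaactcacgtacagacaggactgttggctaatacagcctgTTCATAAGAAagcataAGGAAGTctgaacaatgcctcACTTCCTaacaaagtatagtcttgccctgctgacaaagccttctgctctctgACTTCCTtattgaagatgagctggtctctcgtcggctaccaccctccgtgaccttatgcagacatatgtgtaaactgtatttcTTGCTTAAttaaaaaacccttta
The capitals in Ank are 2 AP-1 and 3 PU.1 motifs, with no STAT letters in the window. Lclat1, Slc7a14, Schip1, Ang5 and Arg1 each hold at least 1 STAT6 motif, which 8.77% of all 77955 regions hold in their central 300 bases. Beside it, Lclat1 holds a STAT motif, Slc7a14 a PU.1 motif, Schip1 2 AP-1 motifs, Ang5 a further STAT6, an AP-1 and an IRF motif, and Arg1 3 PU.1 motifs and a C/EBP motif.

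The 1023 late gains were of 2 kinds by their history. At 579 of them H3K27ac had been lowered at 6 h against basal by the same rule, a class that took 8.63% of all regions, and at 444 it had not. The same 6 h libraries enter both rules, so part of the share of these 579 is fixed by the choice. The first kind went from a median of 54.4 normalized tags at basal to 11.4 at 1 h, 8.48 at 6 h and 37.2 at 24 h. Its median log2 difference from basal to 24 h was -0.55. Over the 44483 regions with at least 16 normalized tags at 6 h or 24 h that difference was -0.53, and over all regions -0.22. The shortfall against basal was thus near that of the 44483 regions. The second kind had medians of 11.5, 6.92, 8.26 and 28.1, and at 213 of the 444 the 24 h mean was past the fold rule above basal. Among single-copy gains the counts were 476 and 392. Without the second 24 h library 246 gains had been lowered at 6 h, without the first 1320, and without the second 6 h library 1163. For the 1023 gains, the library medians were 7.70 and 9.13 at 6 h and 19.5 and 45.9 at 24 h. The rule chose these regions by the same libraries, so the order of the 2 times is largely set by the choice. The second 24 h library was far above the first. Gains lay far from gene starts: 3.91% carried a promoter annotation against 16.1% of all regions, 46.7% were intronic and 42.8% intergenic.

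**Figure D2:**
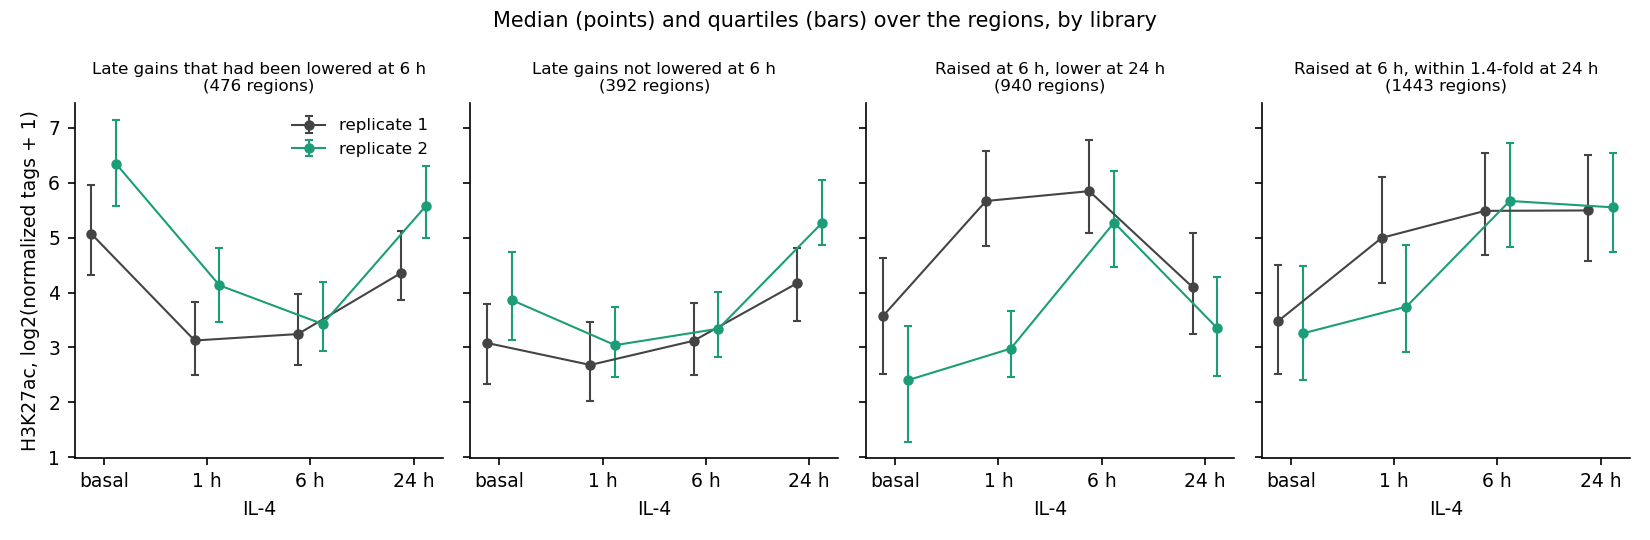
Points are medians and bars the quartiles of H3K27ac over the regions of a set, as log2 of normalized tags plus 1, for each replicate at basal, 1, 6 and 24 h. Late gains lowered at 6 h return toward basal and late gains not lowered at 6 h climb above it, while the regions raised at 6 h split into a set back near basal at 24 h and a set level with 6 h; at 1 h the second replicate lies far below the first in the raised sets.

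Chn2, which encodes the Rac GTPase-activating protein beta-chimaerin, held the largest single-copy gain, in an intron at chr6:54162533-54163533. H3K27ac there was 3.85 and 3.04 normalized tags at 6 h and 27.2 and 108 at 24 h, with 33.9 and 148 at basal. The groups did not overlap, as the choice required. The second 24 h library was far above the first, and each 24 h library lay below the basal library of the same number. Replicate numbers were not taken to pair libraries. The ratio of means was 15.5-fold, the limma log2 difference 3.65 ± 0.76 (SE) and the adjusted p 0.148. This region is beyond 50 kb of the start used for Chn2, and of the 8 regions within 50 kb 6 were also higher at 24 h by the fold rule. A further Chn2 intron at chr6:54179936-54180936 was not lowered early, with 2.31 and 2.43 at 6 h, 5.94 and 45.9 at 24 h, and 5.43 and 11.4 at basal. There the first 24 h library was at the basal level and the gain came with the second.

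Ank, a membrane protein that exports pyrophosphate, had 5.39 and 12.2 normalized tags at 6 h and 36.5 and 105 at 24 h in its first intron (chr15:27517685-27518685), against 35.3 and 112 at basal. Tsc22d1, a leucine zipper protein induced by TGF-beta, had 5.39 and 8.52 at 6 h and 32.3 and 106 at 24 h (basal 39.4 and 133). Galnt10, an enzyme that starts mucin-type sugar chains, had 3.08 and 2.43 at 6 h and 14.4 and 68.9 at 24 h (basal 29.2 and 90.6). Ank was level with basal in both libraries, and Tsc22d1 and Galnt10 were below it. Hs3st1, a heparan sulfate sulfotransferase, Sema6d, a transmembrane semaphorin, and Mn1, a transcriptional co-regulator, followed with ratios of 8.31, 10.1 and 10.7, and their basal means exceeded their 6 h means by the fold rule.

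Of the 10 largest single-copy gains, 3 had not been lowered at 6 h. Near Pbx3, a homeodomain partner of HOX proteins whose start is 232020 bp away, H3K27ac was 0 and 1.22 normalized tags at 6 h and 3.40 and 28.9 at 24 h, with 6.11 and 2.85 at basal. At Slc6a4, the serotonin transporter, it was 0 and 4.26 at 6 h and 8.49 and 38.7 at 24 h, with 2.04 and 15.7 at basal. At Ldlrad1 it was 3.08 and 0.61 at 6 h and 9.34 and 33.5 at 24 h, with 3.39 and 6.42 at basal. Each pair of groups was apart, and the second 24 h library carried most of the 24 h mean. Near Lclat1, a lysophospholipid acyltransferase of cardiolipin remodelling, levels were 3.08 and 3.65 at 6 h, 6.79 and 52.5 at 24 h and 2.04 and 3.57 at basal (chr17:73250186-73251186). Its ratio of 7.02 became 1.79 without the second 24 h library, and its adjusted p in limma was 0.945.

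**Figure D3:**
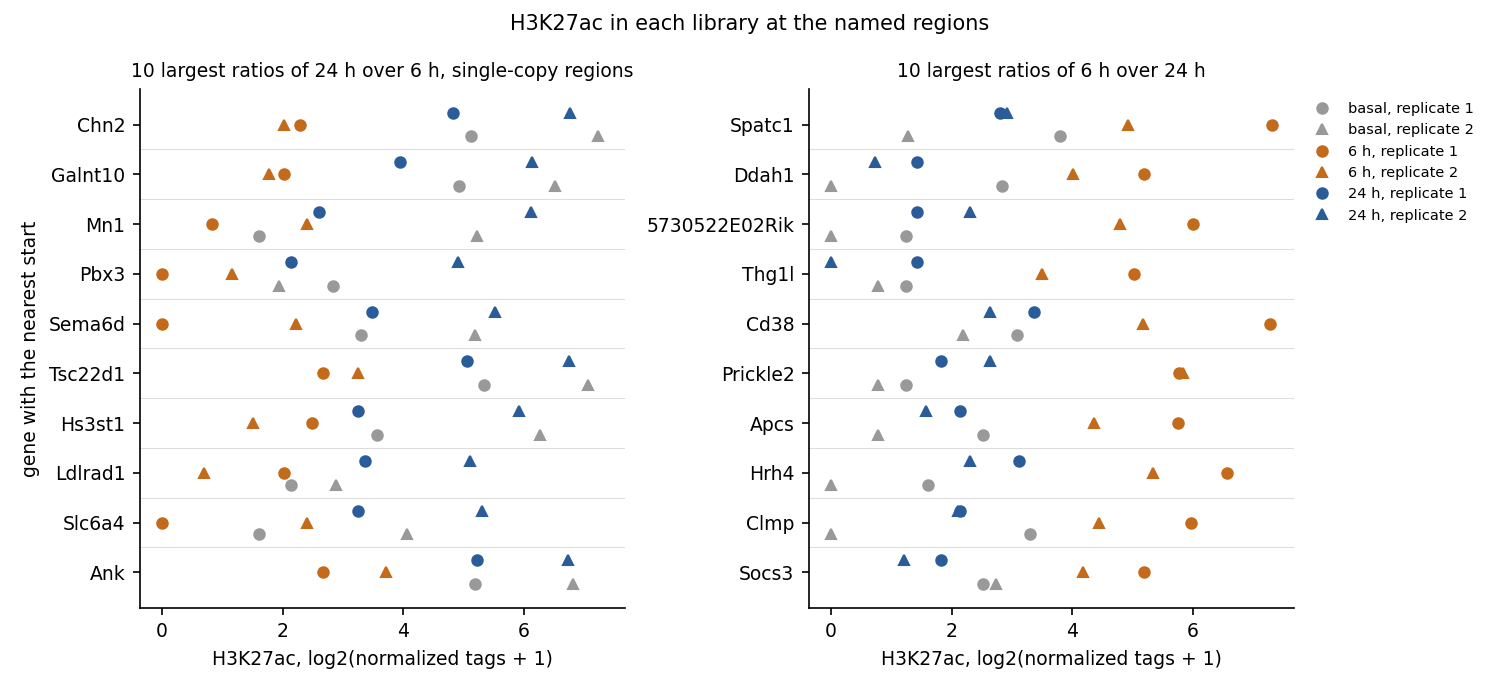
Each point is H3K27ac in 1 library, as log2 of normalized tags plus 1, at the 10 largest single-copy gains (left) and the 10 largest losses (right) between 6 h and 24 h; circles are replicate 1 and triangles replicate 2. On the left the second 24 h library lies right of the first at all 10 genes. On the right both 24 h libraries lie left of both 6 h libraries at all 10, which the choice of these losses required.

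Most of the 1449 regions that were lower at 24 h had been raised early. At 940 of them H3K27ac had been raised at 6 h against basal, a class that took 5.59% of all regions. The same 6 h libraries enter both rules, so part of this share is fixed by the choice. At 119 (8.21%) the 24 h mean was past the rule below basal. That was near the 7.09% of all regions and the 9.98% of those with at least 16 normalized tags at 6 h or 24 h. The library medians were 59.3 and 37.7 normalized tags at 6 h, 17.8 and 9.84 at 24 h and 17.6 and 7.84 at basal. The 24 h libraries were both below the 6 h libraries, an order that the rule largely sets by choosing on these libraries. Each 24 h library was close to the basal library of the same number. Deviations of same-numbered basal and 24 h libraries from their group means correlated at 0.725 over 41628 regions. The part of this in the likeness to basal was not tested. Promoter annotations covered 7.18% of these regions.

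Cd38, an ectoenzyme that consumes NAD, had the most such regions together with Socs3, with 9 of its 10 assigned regions lower at 24 h, 3 of them with a repeated window. In the first exon of Cd38 (chr5:43868496-43869496) H3K27ac was 154 and 35.3 normalized tags at 6 h, 9.34 and 5.25 at 24 h and 7.46 and 3.57 at basal. Groups were apart, as the choice required, with an 11.5-fold lower mean at 24 h. The 6 h libraries differed from each other, and at 1 h the libraries were 168 and 4.13. Prickle2, a planar cell polarity protein, had even replicates in its intron (chr6:92436863-92437863), with 53.9 and 56.0 at 6 h, 2.55 and 5.25 at 24 h and 1.36 and 0.71 at basal. Its limma log2 difference was -3.57 ± 0.77 (SE) with an adjusted p of 0.186, the lowest among the 10 largest losses.

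Other large losses were at Spatc1 (158 and 29.2 at 6 h, 5.94 and 6.56 at 24 h), at Ddah1, which degrades inhibitors of nitric oxide synthase (35.4 and 15.2, then 1.70 and 0.66), and at Clmp, a cell adhesion molecule (61.6 and 20.7, then 3.40 and 3.28). The regions nearest to 5730522E02Rik, to the tRNA-modifying enzyme gene Thg1l and to Apcs, which encodes serum amyloid P, were lower 12-fold, 11.9-fold and 10.1-fold. A region far from Hrh4, which encodes a histamine receptor, was lower 9.98-fold. All of these had been raised at 6 h, and at every one the first 6 h library was the higher. The groups did not overlap, which the choice of the largest losses required.

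Socs3, which encodes an inhibitor of JAK kinases, had lower regions at its promoter, in its body and downstream. Of its 20 regions 9 were lower at 24 h by the fold rule, all 9 raised at 6 h, between chr11:117941117 and 117969856. The medians over the 9 were 117 and 93.1 normalized tags at 6 h, 28 and 21 at 24 h and 28.5 and 25.7 at basal. Both 24 h libraries were thus back at the basal median. At the promoter (chr11:117968856-117969856) the libraries gave 154 and 207 at 6 h and 108 and 21 at 24 h, where the second 24 h library set most of the 2.78-fold difference. Downstream of the gene (chr11:117961876-117962876) they gave 218 and 191 at 6 h and 28.9 and 28.9 at 24 h, an even 6.87-fold difference.

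Further neighbourhoods chosen after their values were seen showed the same direction. Slc7a14, of the cationic amino acid transporter family, had 7 of 9 regions lower, all raised at 6 h, with medians of 143 and 186 at 6 h, 82.3 and 46.6 at 24 h and 5.43 and 4.28 at basal, so it remained above basal. Cd200, a ligand that restrains myeloid cells, had 4 of 7 lower (70.1 and 84.6, then 28.4 and 20.7). Mmp14, a membrane metalloproteinase, had 5 of 9 lower but was not raised early, with 262 and 135 at 6 h, 84.9 and 5.25 at 24 h and 223 and 23.5 at basal. In the other direction, Il1rl1, the receptor for interleukin-33, had 5 of 9 regions higher (10.8 and 11.6 at 6 h, 17 and 87.3 at 24 h). Nfatc2, a calcium-responsive transcription factor, had 5 of 18 higher, with 42.7 and 198 at basal, 13.1 and 9.74 at 6 h and 13.6 and 68.9 at 24 h. Cd300a, an inhibitory receptor, had 4 of 10 higher, with 250 and 482 at basal, 42.4 and 69.7 at 6 h and 105 and 226 at 24 h. The higher regions of Nfatc2 and Cd300a had all been lowered at 6 h, and each 24 h median lay below the basal median of the same number. At Nfatc2 the first 24 h median was close to 6 h, at Il1rl1 it was nearer to 6 h than to the second 24 h median, and at Cd300a both were above 6 h. In all, 497 genes had a higher region within 50 kb of their start, 723 a lower one and 10 both.

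Of the 4356 regions raised at 6 h, 940 (21.6%) were lower at 24 h and 1443 were within 1.4-fold of 6 h. At 2054 (47.15%) the 24 h mean was still past the fold rule above basal, against 3.77% of all regions. Without the second 6 h library 1595 raised regions were lower at 24 h, and without the first 24 h library 1491. The median log2 difference from 6 h to 24 h was -0.70, against -0.06 over all regions. It was -0.21 over the 44483 regions with at least 16 normalized tags at 6 h or 24 h, which every raised region had. The same 6 h libraries chose these regions, which by itself favours a lower later value, so the choice was repeated in 1 replicate number and measured in the other. Of 4715 regions raised in replicate 1, the median difference in replicate 2 was -0.41, and 17.6% were past the fold rule lower against 4.89% of all regions. Of 5707 raised in replicate 2, the median difference in replicate 1 was -0.32, with 12.9% lower against 3.53%. Regions lowered at 6 h and measured in the other number had medians of 0.18 and 0.037, with 11.4% and 4.35% higher against 3.79% and 1.64% of all. Over all regions the medians were -0.11 in replicate 2 and -0.04 in replicate 1. Over the 44483 regions with at least 16 normalized tags they were -0.30 and -0.13, nearer to those of the raised regions. Raised regions were thus further below 0 than both of these references in both directions of the exchange, by less than in the pooled choice. Lowered regions in replicate 1 were close to 0.

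Of the regions that were raised at 6 h and lower at 24 h, Slc7a14 (chr3:31265763-31266763) had 1.36 and 0.71 normalized tags at basal, 143 and 233 at 6 h and 86.6 and 52.5 at 24 h. Near Cry1, a repressor of the circadian clock, a region had 0.68 and 1.43, then 198 and 145, then 57.7 and 53.2. Near Schip1 a region (chr3:68630649-68631649) had 0 and 0, then 75.5 and 45.6, then 37.4 and 9.84. Each stayed above basal at 24 h in both libraries. Pigk, a subunit of the enzyme that attaches GPI anchors, had 136 and 72.4 at 6 h and 19.5 and 7.88 at 24 h. In an intron of Rai14, an actin-associated protein, the 24 h libraries went apart, with 223 and 97.4 at 6 h and 77.2 and 1.97 at 24 h.

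Early regions that kept their level included 1 beside an inhibitor of the pathway itself. Near Ang5, a ribonuclease of the angiogenin family, H3K27ac was 2.04 and 0 normalized tags at basal, 206 and 262 at 6 h and 202 and 221 at 24 h (chr14:43966889-43967889). At the end of Socs1, which encodes an inhibitor of JAK kinases like SOCS3, it was 6.11 and 1.43, then 182 and 262, then 155 and 203. At the Tmem26 promoter it was 2.04 and 0.71, then 90.1 and 146, then 136 and 52.5. The libraries of 6 h and 24 h overlapped at all 3. At the Tmem26 promoter the first 24 h library was the higher, and the second lay below both 6 h libraries. Regions in Ttc27 and near Chic2 were at 86.3 and 153, then 86.6 and 99.8, and at 97.8 and 161, then 72.2 and 119.5, also with overlap. An intron region of Tmem26 (chr10:68735321-68736321), also raised early, did not keep its level. It had 55.45 and 57.81 at 6 h and 23.77 and 17.72 at 24 h, a 2.65-fold lower mean with the groups apart.

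Among 239 regions of 29 alternative activation genes, 10 were higher and 7 lower at 24 h by the fold rule, 4.18% and 2.93%, and limma called 0. The median log2 difference was 0.07, against -0.06 over all regions. Arg1, arginase 1, had 4 of 12 regions lower. At its most acetylated region (chr10:24929849-24930849) levels were 105 and 133 at basal, 689 and 368 at 6 h and 271 and 278 at 24 h, above basal at both times and 1.92-fold lower at 24 h, which is under the fold rule. Farther upstream (chr10:24952277-24953277) they were 94.0 and 19.5 at 6 h and 6.79 and 9.84 at 24 h, a 6.2-fold lower mean. Pdcd1lg2, which encodes the checkpoint ligand PD-L2, was lower in its intron, with 159 and 88.9 at 6 h and 55.2 and 34.8 at 24 h.

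The higher regions of the list included chemokine and lectin genes. In each list, regions other than the most acetylated one of a gene were named after their values were seen. At the promoter of Ccl24, a chemokine for eosinophils, levels were 6.16 and 10.4 normalized tags at 6 h and 18.7 and 45.3 at 24 h. Upstream of Ccl17, a chemokine for T cells, they were 1.54 and 8.52, then 13.6 and 24.9 (chr8:94804210-94805210). At the promoter of Rnase2a, an eosinophil-type ribonuclease, they were 6.16 and 14, then 32.3 and 28.9, with 0.68 and 2.14 at basal. All 3 were apart between 6 h and 24 h, and at Rnase2a and Ccl17 the 24 h levels exceeded basal in both libraries. Near the lectin Clec10a they were 10.8 and 21.3, then 50.1 and 89.3, against 67.8 and 165 at basal, and at Il4i1, an amino acid oxidase, 10.0 and 6.09, then 12.7 and 32.8. Matk rested on the second 24 h library, with 3.85 and 10.4, then 5.09 and 68.3.

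Other genes of alternative activation held regions that did not pass the rule. The most acetylated region of Mrc1, the mannose receptor, had 404 and 268 normalized tags at 6 h and 211 and 149 at 24 h, and that of Chil3, a chitinase-like protein, 27.7 and 32.3, then 12.7 and 13.8. The Slc7a2 promoter, of an arginine transporter, had 478 and 411, then 396 and 159, against 10.9 and 4.99 at basal. These 3 were apart and lower by 1.60-fold to 2.17-fold. The region of Ccl22 was at 2.31 to 5.09 in all 4 libraries, and no region lay within 50 kb of Retnla.

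Among 131 regions of the 13 IL-4 receptor and feedback genes, 2 were higher and 11 lower (1.53% and 8.40%), and 9 of the 11 belong to Socs3. The other lower regions were an intron of Il4ra, the receptor chain (25.4 and 40.2 at 6 h, 7.64 and 9.19 at 24 h), and a region upstream of the kinase gene Jak1 (50.8 and 65.1, then 22.9 and 11.8). Both higher regions were of Socs2, a member of the same inhibitor family that is also in the alternative activation list. Its promoter (chr10:95416330-95417330) had 8.14 and 7.13 at basal, 19.3 and 13.4 at 6 h and 56.9 and 34.8 at 24 h, a 2.70-fold higher mean with an adjusted p of 0.945 in limma. The Socs1 promoter had 916 and 710 at 6 h and 812 and 510 at 24 h, and the Cish region 246 and 285, then 194 and 152, both under the fold rule.

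Among 288 regions of transcription factor genes of the IL-4 response, 8 were higher and 5 lower, and under median-ratio scaling the counts were 14 and 2. Bhlhe40, a helix-loop-helix repressor, had a region (chr6:108671764-108672764) with 7.46 and 4.99 at basal, 15.4 and 19.5 at 6 h and 46.7 and 74.8 at 24 h, raised early and higher still. In an exon of Irf4, a factor of alternative activation, levels were 9.24 and 3.04 at 6 h and 22.9 and 26.3 at 24 h. Downstream of Myc, a growth regulator, they were 18.5 and 17.7, then 60.3 and 166 (basal 43.4 and 97.7). Near Batf they were 3.85 and 7.91, then 12.7 and 25.6 (basal 8.14 and 10.7). Near Klf6 they were 34.7 and 32.9, then 44.1 and 135 (basal 60.4 and 154). The lower regions were 4 of 27 at Cebpb, which encodes C/EBP beta, with medians of 243 and 159 at 6 h, 107 and 37.1 at 24 h and 95.7 and 26.7 at basal, and 1 in Rxra, the partner of PPARg (145 and 194, then 64.5 and 65.6). The most acetylated region of Egr2 held 223 and 262 at 6 h and 296 and 190 at 24 h, that of Pparg 176 and 273, then 249 and 309, and that of Klf4 218 and 282, then 393 and 176, with overlapping groups at each.

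Of the other lists, macrophage identity genes had 8 higher and 1 lower of 157 regions. The higher ones were 5 near Runx1 and 3 near Cebpa, both lineage factors, and the lower was in Lyz2, lysozyme, with 376 and 141 at 6 h and 114 and 56.4 at 24 h. The Runx1 regions starting at chr16:92853305 and chr16:92854239 had overlapping groups and rested on the second 24 h library. They had 12.3 and 31.6 at 6 h, then 20.4 and 159, and 4.62 and 7.91, then 6.79 and 69.6. At the most acetylated of the Runx1 gains (chr16:92865071-92866071) levels were 90.9 and 254 at basal, 17.7 and 28.6 at 6 h and 58.6 and 153 at 24 h. The most acetylated region of Spi1, which encodes PU.1, was at 737 and 669, then 668 and 587. Lipid genes had 4 higher and 1 lower of 167, with the scavenger receptor Cd36 at 13.9 and 12.2, then 26.3 and 45.3 at its promoter. The other higher regions were 2 at Angptl4, an inhibitor of lipoprotein lipase, where the groups overlapped, and 1 near Fabp5, a fatty acid carrier that also held the lower one.

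Inflammatory and NF-kB genes had 2 and 2 of 192. Il1a, interleukin-1 alpha, was lower at 2 regions, with 183 and 85.8 at 6 h and 39.1 and 14.4 at 24 h in its first intron (basal 23.8 and 2.14), and single regions near Il10 and Tnfaip3 were higher. Interferon genes had 0 higher and 2 lower of 68, both at Rsad2, and lysosome genes 0 and 2 of 204, both at Gpnmb. Antigen presentation genes had 1 higher of 91, at Ciita, the class II transactivator, with 14.6 and 12.2, then 34.8 and 45.3 (basal 31.2 and 74.2). Cell cycle genes had 1 lower of 126, near E2f1, and the genes of other cell types 0 of 36. Shares of 1.31% and 1.86% over all regions stand beside these counts, and limma called 0 regions in each list.

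The 57 regions that rose in limma were grouped at a few repeated places, 51 of them in Sfi1, a centrosome protein gene, between chr11:3127939 and 3184311. In that stretch all 69 measured regions were past the fold rule and all 69 held a window that recurred in the reference. The remaining 6 were near Scaf8 (2), Gm10718, Gm10553, Rab39b and Sp110. At the Sfi1 region with the largest ratio of means (chr11:3164075-3165075) H3K27ac was 0 and 0 normalized tags at 6 h, 88.3 and 93.9 at 24 h, 44.1 and 48.5 at basal and 0 and 2.75 at 1 h. These are 0 reads at 6 h and 247 at 24 h. The level was at least 72.4-fold higher at 24 h by the lower 95% limit of the ratio of reads, and the ratio was 89.7 against a floor of 3 reads over the 6 h group. The adjusted p was 8.19e-05. A window of 75 bases from this region is printed because the reference holds it at this place and again on 1 sequence that is not placed on a chromosome.
Sfi1, chr11:3164486-3164560: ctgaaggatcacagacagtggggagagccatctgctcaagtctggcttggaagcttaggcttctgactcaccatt
Of 10 such windows in the region, 5 recurred in this way. At Gm10718 levels were 7.70 and 6.09 at 6 h and 453 and 509 at 24 h, the adjusted p was 8.19e-05, and windows occurred up to 21 times on chromosomes.

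Over the 51 Sfi1 regions the medians were 37.3 and 37.1 at basal, 0.77 and 2.75 at 1 h, 0.77 and 1.83 at 6 h and 73.9 and 75.5 at 24 h. The basal and 24 h libraries were high and the 1 h and 6 h libraries low, with no overlap. Of the 57, 53 had thus been lowered at 6 h. Pol II medians over the 51 were 4.99, 25.7, 25.7 and 68.9 at basal and 3.05 at 1 h. They were 2.74 and 4.88 at 6 h and 35.4, 5.92 and 71.8 at 24 h. All 24 h medians lay above both 6 h medians, the second only slightly, while the basal and 24 h libraries each spread widely. The log2 difference of Pol II from 6 h to 24 h was above 0 at all 57 regions, against 51.8% of all regions. In limma 49 of the 57 had higher Pol II at an unadjusted p under 0.05. The fold rule for Pol II, which uses group means, was passed at 55 of the 57. Among gains by the fold rule 14.1% held a repeated window, against 5.44% of all regions and 3.52% of losses. Of the 12 regions in mitochondrial DNA, which carries no histones, 11 were gains, with medians of 36.6 and 18.9 at 6 h and 48.8 and 249 at 24 h. The part of copy number, alignment or sample source in these values was not tested.

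Pol II was read in other libraries at the same regions, and the labels do not tell whether these came from the same cells. By a fold rule with at least 8 normalized tags, 305 of all regions (0.391%) were higher at 24 h and 291 (0.373%) lower, and limma called 0 (0%), with 654 higher and 472 lower at an unadjusted p under 0.05, and edgeR also called 0. The counts moved with single libraries, to 1085 higher and 979 lower without the second 6 h library, 519 higher without the first, 741 higher and 889 lower without the second 24 h library and 690 lower without the first. At the H3K27ac gains Pol II was higher at 169 of 1023 (16.5%) and lower at 0, and at single-copy gains at 73 of 868 (8.41%, against 0.261% of all single-copy regions). At the losses it was lower at 118 of 1449 (8.14%) and higher at 0. The median log2 difference of Pol II was 0.73 at gains and -0.65 at losses, against 0.02 over all regions. Library medians at single-copy gains were 4.38 and 3.90 normalized tags at 6 h and 7.34, 3.64 and 10.3 at 24 h, so the second 24 h library was not above 6 h. At single-copy losses they were 18.6 and 15.6 at 6 h and 11.3, 12.7 and 5.13 at 24 h, all 3 below both.

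At named genes Pol II went with H3K27ac in some libraries. In Il1a it was 46 and 34.1 at 6 h and 8, 20.0 and 0 at 24 h, and at the region near Cry1 103 and 83.9, then 32.7, 56.4 and 7.70, with all 24 h libraries below both 6 h libraries. At the Arg1 region it was 118 and 68.7, then 55.4, 45.5 and 41.0, also apart. At the first exon of Cd38 it was 51.5 and 21, then 8.67, 40.1 and 0, with overlap. At the Socs2 promoter it was 18.1 and 30.2, then 48.7, 36.4 and 33.4, all 24 h libraries higher. At the Chn2 gain it was 1.10 and 1.95, then 4.67, 0.91 and 12.8, with overlap. None of these passed limma, where the adjusted p was 1 at each.

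**Figure D4:**
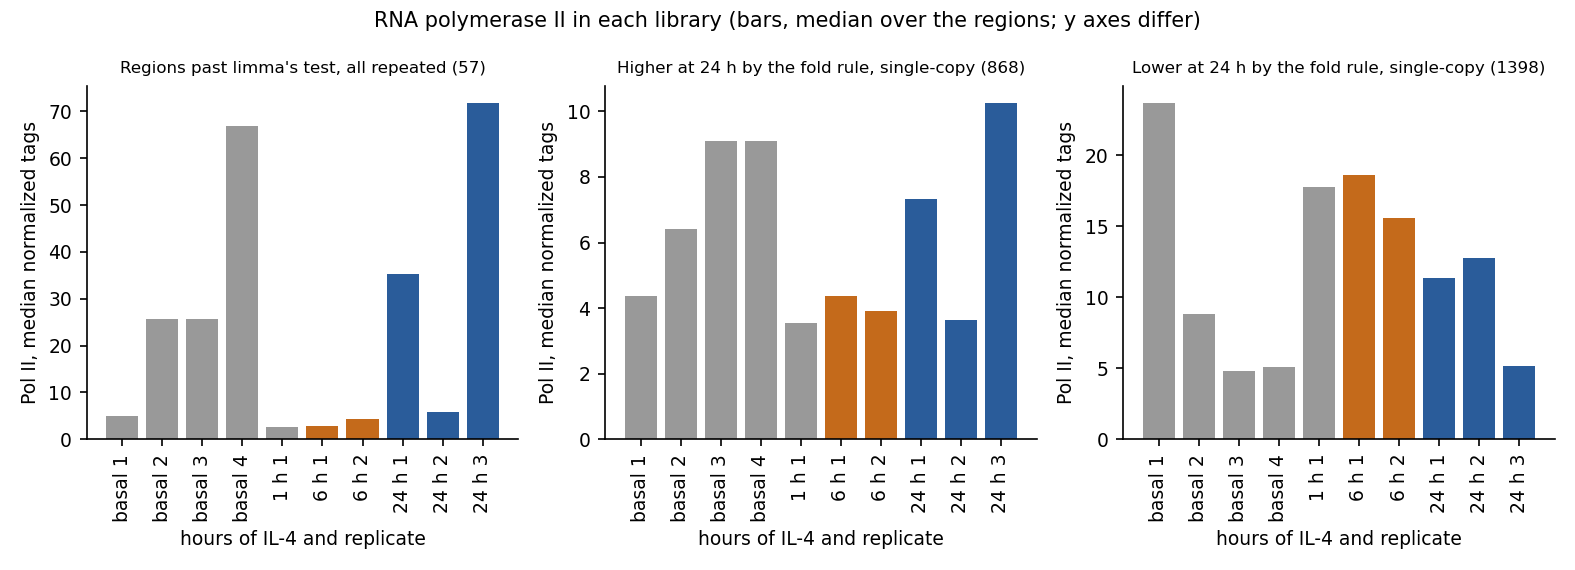
Bars are the median normalized tags of Pol II over the regions of a set in each library, at basal, 1, 6 and 24 h, with separate y axes from 0. At the repeated regions the libraries of basal and 24 h spread from 4.99 to 71.8, at single-copy gains the second 24 h library is at 3.64 and not above the 6 h libraries, and at single-copy losses all 24 h libraries lie below both 6 h libraries.

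The regions differed in the factors whose deposited peaks overlapped them by at least 1 bp. STAT6 peaks of 24 h covered 77.6% of gains and 29.8% of losses, against 44.4% of all regions. A STAT6 peak at 24 h without a peak at 6 h was found at 42.2% of gains, 7.38% of losses and 17% of all regions, and the reverse at 0.293%, 14.8% and 3.03%. Basal STAT6 peaks covered 74.8% of single-copy gains that had been lowered at 6 h and 36.0% of those that had not. PU1 peaks of 24 h covered 83.3% of gains and 48.2% of losses (65.1% of all), PPARg peaks of 24 h 57.1% and 24.6% (37.3%), and CEBPb peaks 53.5% and 39.3% (38.0%). EGR2 peaks of 24 h lay at 55.6% of single-copy gains not lowered at 6 h and at 35.9% of those lowered, with 35.3% over all regions. Every gain and loss held at least 16 normalized tags at 6 h or 24 h, which 57.1% of all regions did. EGR2 sites lay within 500 bp of the centre at 49.1% of those regions, against 34.8% of all. By that measure they lay at 56.1% of single-copy gains not lowered and at 35.1% of those lowered. Shares over all regions are thus an unlike reference for the peaks of each factor. These are shares without a test, and a list grows with the depth of its libraries.

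Early regions that kept their level and those that lost it held different shares of the same features. Of the 1443 within 1.4-fold, 74.0% held a STAT6 peak at 24 h, 74.0% a PU1 peak, 57.7% an EGR2 peak and 53.8% a PPARg peak, and of the 940 that were lower 27.7%, 42.1%, 38.0% and 22.6%. In letters, the STAT6 motif stood in 27.9% of the kept and 16.8% of the lost early regions, and in 14.5% of single-copy gains not lowered against 5.25% of those lowered. The PU.1 motif stood in 29.6% of gains, 15.4% of losses and 22.3% of all regions, and the C/EBP motif in 15.8%, 24.8% and 15.9%. The AP-1 motif was found in 21.8% of gains, 28% of losses and 19.6% of all regions. A match is a run of letters, and nothing here shows binding to it.

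**Figure D5:**
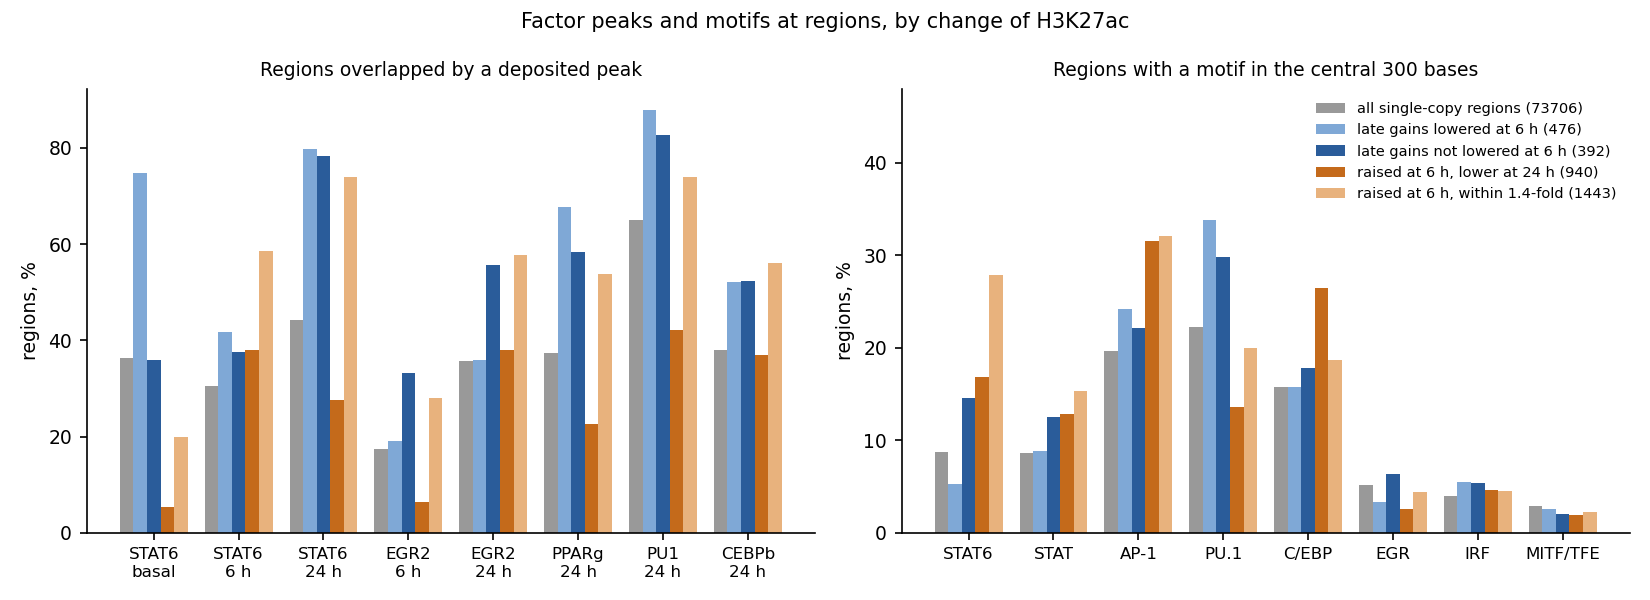
Bars give the percent of regions in a set that a deposited peak of each factor overlaps (left) and that hold a motif in their central 300 bases (right), for all single-copy regions, the kinds of late gain, and the early regions that were lower or kept at 24 h. STAT6 peaks at 24 h cover 79.8%, 78.3% and 74.0% of both kinds of gain and the kept regions but 27.7% of the lost ones, and the STAT6 motif is most frequent, at 27.9%, in the kept regions.

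EGR2, a zinc finger factor induced by IL-4, was measured at 30675 sites of its own, of which limma called 0 (0%) between 6 h and 24 h, with 810 higher and 92 lower at an unadjusted p under 0.05. Without the second 6 h library, 703 sites were higher. Sites within 500 bp of a region centre had a median log2 difference of 0.27 at 397 sites in gains and 0.83 at 480 sites in losses, against 0.48 at all 30675. The library medians at sites in losses were 8.73 and 35.7 normalized tags at 6 h and 34.1 and 30.2 at 24 h, so the second 6 h library was above both 24 h libraries and the groups overlapped. At sites in gains they were 31.4 and 39.2, then 53.9 and 32.6, with overlap. At the site in the Arg1 region it was 21 and 205 normalized tags at 6 h and 53.4 and 142 at 24 h, with overlap.

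H3K27ac in Egr2-deleted macrophages came from libraries the other comparisons did not use. At the 4677 sites of that table, which are EGR2 peaks induced at 24 h, 1087 (23.2%) were lower in LyzMCreEgr2flfl than in Egr2flfl at 24 h in limma and 66 (1.41%) higher. With 1 library left out, the lower sites numbered 449 and 432 without an Egr2flfl library and 641 and 895 without a LyzMCreEgr2flfl library, and the higher sites 12 to 31. Of 86 sites in late gains 26 (30.2%) were lower, of 57 in gains not lowered at 6 h 23 (40.4%), and of 29 in gains lowered at 6 h 3 (10.3%). Of 95 sites in losses 52 (54.7%) were lower, and of 649 sites in all regions raised at 6 h 307 (47.3%). Beside these, 25.15% of 3380 sites in all regions were lower. Of 2491 sites in regions with at least 16 normalized tags at 6 h or 24 h, 27.2% were lower. The share at late gains as a whole was near these. It was higher at gains not lowered at 6 h, at losses and at raised regions, and smaller at gains that had been lowered. Near Pigk the libraries gave 124 and 84.1 normalized tags in Egr2flfl and 42.6 and 19.2 in LyzMCreEgr2flfl, a log2 difference of -1.80 with an adjusted p of 0.003422, and the groups were apart. At Arg1 they gave 348 and 369, then 422 and 373 (adjusted p 0.646), and at Slc7a14 287 and 245, then 253 and 258 (adjusted p 0.903).

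At the border of the fold rule, the gains just inside included a region near Ripk2, a kinase of innate signalling, with a ratio of 2.502, and the first outside a region near Itpkb with 2.499. Among losses the last inside was near Atp2a2, a calcium pump, with 2.501, next to the checkpoint ligand gene Cd274 with 2.502, and the first outside near Slx4ip with 2.499.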

How the data were processed

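H3K27ac, Pol II and EGR2 ChIP-seq libraries of mouse bone marrow-derived macrophages were taken from the deposited tables, and the members and gene lists were chosen with earlier results of these data known. The authors aligned reads to mm10 with Bowtie2 and made the deposited signal tables with HOMER, as normalized tags per 10000000 reads of a library. The regions were 1000 bp around centres of reproducible ATAC-seq peaks, the EGR2 table held merged EGR2 peaks, and the genotype table held EGR2 peaks induced at 24 h. Neighbouring regions can overlap and then share tags. The 14 deposited peak lists were HOMER peaks kept by a reproducibility filter, 1 list per condition. Across the tables, 4 columns were left out because their names fitted no sample.

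The fold rule (2.5-fold of group means plus 1, with at least 16 normalized tags, or 8 for Pol II) and the 1.4-fold limit for a kept level took their thresholds from the study's methods, but the added 1, the use of all regions rather than intronic and intergenic ones, and the absence of a Pol II condition were choices made here. The limma test (limma 3.58.1, R 4.3.3) used log2(normalized tags + 1) with an intensity trend over all libraries of a mark in C57 with the contrast of 24 h against 6 h, or over all 8 genotype libraries with the contrast of genotypes at 24 h, with Benjamini-Hochberg adjustment and a threshold of 0.05. A fold change on this scale understates the change of low regions. All values of the time-course table were whole reads within 0.1 read, so edgeR 4.0.16, whose quasi-likelihood test called 25 regions, and DESeq2 1.42.0 were run on those reads as alternatives. Library totals give the depth, and intervals or floors cover counting error only. No replicate pair was identical or within sampling noise. Genes were named by the nearest protein-coding start of GENCODE on GRCm38, which is a name only, and lists took regions within 50 kb. Named regions were the 10 largest rises and falls by the ratio of means, 1 per gene and also over single-copy regions. These rises and falls were taken only from regions past the fold rule whose 6 h and 24 h libraries did not overlap. The 5 regions with the largest early rise that were lower or kept at 24 h, and the most acetylated region of listed genes, were also named. Peaks overlapped by at least 1 bp, sites lay within 500 bp of a centre, and motifs were searched in the central 300 bases. The scripts were tested on simulated data. Alternatives were another pseudocount, filter, fold threshold and scaling, other tools, a replicate block, each library left out, and single-copy regions only, the last chosen after seeing the data.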

Additional observations from a re-analysis of the deposited data

Results flagged for a closer look

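Pol II in the basal libraries had 1 library far from the other 3 at both sets of regions raised at 6 h. At the regions that were raised and then lower at 24 h, the basal medians were 19.97, 5.62, 2.68 and 3.04 normalized tags, and the gap of the first library to the nearest other was 0.83 of the whole range. At the regions that were raised and kept within 1.4-fold, the medians were 9.98, 5.62, 4.82 and 5.06, with a gap of 0.845 of the range. Chance flags about 1 in 20 groups, and both sets share the same 4 libraries.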

How the results depend on the processing

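Of the alternative values of the main results, 72 were within 1.5 times the reported count or within its spread and 56 were not. More H3K27ac regions were lower (1449) than higher (1023) by the fold rule, and this balance turned under median-ratio scaling (1324 higher, 1110 lower), without a filter (3122 and 2190) and without the first 6 h library (1088 and 1025). Regions higher at 24 h by the fold rule numbered 541 with a pseudocount of 5, 3122 without a filter, 526 with a filter of 32 normalized tags, 2109 at a fold of 2 and 464 to 2855 with 1 library left out. Lower regions numbered 911, 2190 and 3253 with that pseudocount, no filter and a fold of 2, and 1025 to 4056 with 1 library left out. For Pol II, higher regions numbered 135 with a pseudocount of 5, 192 in single-copy regions and 215 to 1085 with 1 library left out, and lower regions 52 and 220 to 979. The 57 limma rises became 25 with edgeR, 31 with median-ratio scaling, 0 in single-copy regions and 21 to 77 with 1 library left out. The 0 falls became 6 with DESeq2, 15 in a fit over 6 h and 24 h alone, 1 with a pseudocount of 5 and 0 to 25 with 1 library left out. With 1 library left out, limma called 0 to 8 Pol II rises, 0 to 703 higher and 0 to 5 lower EGR2 sites, and 12 to 31 higher and 432 to 895 lower sites by genotype, where a lone library is assumed to vary like the other groups. Raised regions that were lower at 24 h numbered 662 to 1595, late gains that had been lowered 246 to 1320, and the median of raised regions was -0.93 to -0.63, or -0.41 and -0.32 where 1 replicate number chose and the other measured. The causes were not tested.

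Replicate numbers were not taken to pair the samples, since the labels tie them to no shared mouse or day and deviations of same-numbered H3K27ac libraries correlated at 0.029 between 6 h and 24 h over 41628 regions. Other pairs of times ranged from 0.036 (basal and 6 h) to 0.725 (basal and 24 h), and the compared groups gave 0.285 for Pol II, 0.146 for EGR2 and 0.231 for the genotypes. With the replicate block, limma called 264 rises and 402 falls of H3K27ac, 10 rises of Pol II, 5 higher and 4 lower EGR2 sites, and 169 higher and 1333 lower sites by genotype. Of 285 alternatives for named regions 258 kept their side of the fold rule, 23 lost it, 14 of them without the second 24 h library, and 4 gained it. A count test on the EGR2 and genotype tables was not run. With 2 libraries at each time, 11780899 to 16432575 reads and 18.9 to 26.3 reads behind 16 normalized tags, differences near the fold rule were within the spread between libraries.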
